A study of Mus musculus with 18 samples.

Results

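The genes described are 10 genes of the Notch pathway among the 54838 genes of the count table. They are 3 receptors (Notch1, Notch2 and Notch3), 3 ligands (Dll1, Dll3 and Jag1) and 4 target genes of the HES and HEY families (Hes1, Hes5, Hey1 and Hey2). They were chosen by name, with earlier results of these data known, and Hes5 was chosen on its measured level, which was noted as lost by 1 week. All 10 genes passed the filter on low counts, although Dll3 and Hes5 passed it through the conditions in which they were high. For these reasons Hes5 and Dll3 are described without a test wherever untreated conditions are compared, and the tests of those comparisons cover the other 8 genes.

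The study followed the differentiation of murine neurospheres (NSPs) into astrocytes with and without the inflammatory cytokine TNF, and RNA was sequenced from 18 cultures in 6 conditions with 3 replicates each. NSPs are free-floating aggregates of neural stem cells, here from the ventricular zone of C57BL/6J wild type embryos at embryonic day 14, kept proliferating with EGF at 20 ng/ml. Differentiating cells were grown in 10% serum without EGF for 24 h, 72 h or 1 week, and cells of 2 further conditions received TNF at 50 ng/ml throughout the 24 h or 72 h. The labels give single wild type brains as the source without saying whether the replicates of a condition came from different embryos. The study's methods speak in general of independent biological experiments and do not say how the sequenced libraries relate to them, so the p-values measure the spread between these cultures, which may be technical.

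Notch is a receptor read out by contact between neighbouring cells. A ligand of the Delta or Jagged family on one cell binds the receptor on the next, the receptor is cut by an ADAM protease and then by gamma-secretase, and the freed intracellular domain joins the DNA-binding protein RBPJ in the nucleus to switch on genes such as Hes1, Hes5, Hey1 and Hey2. The HES and HEY proteins are repressors that hold back proneural factors, and the pathway is known for keeping neural stem cells undifferentiated and for favouring glial fates.

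The libraries held between 12509693 and 22549627 counts (median 16794798). The first replicate of the NSPs, of 24 h with TNF and of 72 h with TNF lay farthest from their group mates, so results that rest on them are also given without these 3 libraries, an alternative chosen after the data were seen. Neural stem cell markers were abundant in NSPs (Nes, Sox2, Fabp7 and Vim, at 5410 to 6930 CPM in sum with the fifth marker, Prom1, which averaged 0.229 CPM), and all 8 astrocyte markers exceeded 1 CPM in every condition. CPM values are counts relative to the library total after TMM scaling. The sum of 4 markers of dividing cells fell from 1320 to 2130 CPM in NSPs to 94.7 to 98.7 CPM at 24 h and 8.22 to 10.3 CPM at 1 week. The 6 microglial markers summed to at most 1.56 CPM and the 4 fibroblast markers to at most 0.978 CPM in any library. The mural marker Acta2 averaged 5.83 CPM in NSPs, 439 CPM at 24 h, 235 CPM at 72 h and 371 CPM at 1 week, while the other 5 mural markers averaged at most 3.18 CPM in any condition. These are bulk samples, in which fewer cells of a type and less RNA per cell cannot be told apart.

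The promoters of the target genes bear on how the pathway is read, since RBPJ binds DNA at a short core. The RefSeq promoter table (GRCm38.p6) held entries for 8 of the 10 genes, all but Hes1 and Hey1, and the 250 bases before each start were searched on both strands for TGGGAA, the core of the RBPJ motif. Hes5 and Hey2 are shown because theirs were the windows that held it. The Hes5 window lies at chr4:154960673-154960922 on the plus strand, directly upstream of the gene. The Hey2 window lies at chr10:30842802-30843033 on the minus strand and is cut by 18 bases, where the annotated gene begins. Capitals mark TGGGAA or its reverse complement TTCCCA.
Hes5: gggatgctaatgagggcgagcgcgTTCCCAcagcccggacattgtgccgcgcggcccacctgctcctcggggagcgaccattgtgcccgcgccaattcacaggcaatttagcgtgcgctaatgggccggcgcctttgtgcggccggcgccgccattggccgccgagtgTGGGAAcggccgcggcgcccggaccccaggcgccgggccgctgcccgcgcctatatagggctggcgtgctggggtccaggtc
Hey2: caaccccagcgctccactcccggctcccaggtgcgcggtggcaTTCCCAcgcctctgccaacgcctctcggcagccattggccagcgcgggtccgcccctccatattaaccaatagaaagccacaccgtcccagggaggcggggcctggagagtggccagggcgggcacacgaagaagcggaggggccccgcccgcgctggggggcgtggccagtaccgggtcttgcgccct
In Hes5 the matches begin 226 bases before the start, on the opposite strand, and 82 bases before it, on the strand of the gene, and in Hey2 the match begins 207 bases before the RefSeq start. Of 32851 promoter windows of this length, 21.6% held the letters at least once and 2.8% held them 2 or more times. The windows of the 3 receptors held CACNAG, the N-box that HES proteins can bind, which is found in 36.7% of all windows. A match describes letters in a window and is not a bound site.

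Differentiation was accompanied by a change of receptor and by a lower level of the ligands and of the HES targets, while the HEY target Hey1 rose. At 24 h against NSPs, 2 of the 8 tested genes were higher (Notch2 and Hey1) and 3 were lower (Dll1, Jag1 and Hes1), where 27.2% of all 20067 tested genes were higher and 25.5% were lower. At 72 h the counts were 2 higher and 5 lower, beside 28.1% and 27.2% of all genes. At 1 week they were 2 higher and 6 lower, beside 29.6% and 29.1% of all genes. Over the 8 genes the log2 fold change had a median of -0.61 (24 h), -1.41 (72 h) and -1.25 (1 week), against 0.06, 0.05 and 0.06 over all tested genes. The 3 comparisons share the NSP libraries and are not independent of each other. A gene is called changed where edgeR's quasi-likelihood test gave an adjusted p below 0.05 over all tested genes.

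**Figure D1:**
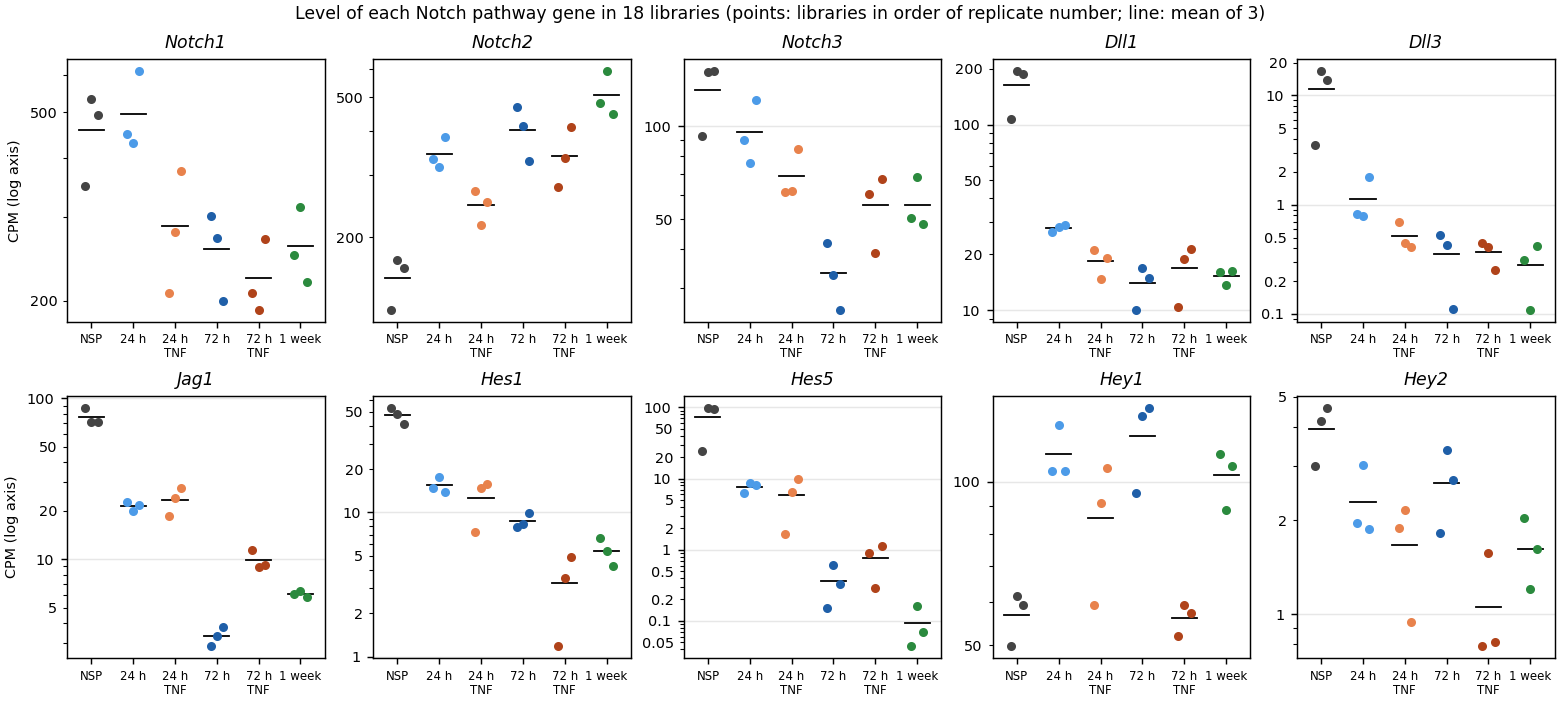
CPM of each of the 10 genes on a log axis (each panel has its own range) in the 6 conditions, with 1 point per library and a line at the mean of 3. The NSP points of Dll1, Dll3, Jag1, Hes1 and Hes5 lie above every other point of their panel, those of Notch2 lie below every other point, and the 72 h TNF points of Hey1 lie among the NSP points.

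Notch1 (ENSMUSG00000026923, chromosome 2, 26457903 to 26516663) was at 349, 534 and 493 CPM in NSPs and at 449, 429.8 and 611 CPM at 24 h. It was at 302, 271 and 199.5 CPM at 72 h and at 249, 316 and 219 CPM at 1 week. The NSP and 24 h libraries overlapped, and every later untreated library lay below both. The log2 fold change against NSPs was 0.11 ± 0.22 (SE, n = 3 per condition) at 24 h, with an adjusted p of 0.686 (edgeR), and its sign turned when NSP replicate 1 or 24 h replicate 3 was left out. Notch1 fell by 0.83 ± 0.23 on the log2 scale at 72 h (adjusted p = 0.00414) and by 0.81 ± 0.23 at 1 week (adjusted p = 0.00473). The fall took place between 24 h and 72 h, with a log2 fold change of -0.95 ± 0.23 and an adjusted p of 0.00438, which became 0.05 in a fit with the replicate number as a block and 72 h replicate 3 unpaired.

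Notch2 (ENSMUSG00000027878, chromosome 3, 98013527 to 98150361) moved the opposite way. It was at 125, 172 and 164 CPM in NSPs and at 335, 316 and 385 CPM at 24 h. It was at 469, 414 and 329 CPM at 72 h and at 481, 594 and 448 CPM at 1 week. No differentiating library overlapped the NSPs, while 24 h overlapped 72 h and 72 h overlapped 1 week. Notch2 was 2.24-fold higher than in NSPs at 24 h (log2 1.17 ± 0.17, adjusted p = 2.22e-05), 2.63-fold higher at 72 h (log2 1.39 ± 0.17, adjusted p = 1.91e-06) and 3.30-fold higher at 1 week (log2 1.72 ± 0.18, adjusted p = 1.24e-07). The steps from 24 h to 72 h (log2 0.23 ± 0.17, adjusted p = 0.368) and from 72 h to 1 week (log2 0.33 ± 0.17, adjusted p = 0.307) did not pass the test.

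Notch3 (ENSMUSG00000038146, chromosome 17, 32120820 to 32166852) was lowest at 72 h. It was at 92.7, 149.9 and 151 CPM in NSPs and at 90.3, 76 and 121 CPM at 24 h. It was at 41.7, 32.9 and 25.5 CPM at 72 h and at 50.4, 68.3 and 48.4 CPM at 1 week. NSPs and 24 h overlapped, because NSP replicate 1 lay below 24 h replicate 3, whereas 72 h and 1 week did not overlap each other or the earlier conditions. Against NSPs, Notch3 fell by 1.98 ± 0.25 on the log2 scale at 72 h (adjusted p = 2.35e-06) and by 1.23 ± 0.24 at 1 week (adjusted p = 2.75e-04). At 24 h the log2 fold change was -0.45 ± 0.24 with an adjusted p of 0.121, and without NSP replicate 1 it was -0.65 with an adjusted p of 0.0329. From 24 h to 72 h it fell by 1.53 ± 0.25 (adjusted p = 1.78e-04). From 72 h to 1 week the log2 fold change was 0.74 ± 0.25 with an adjusted p of 0.0807, which became 0.0485 without 72 h replicate 1 and 0.0457 with DESeq2.

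Levels of different receptors can be compared only per length, so counts were divided by the exon length of each gene and expressed as a share of Notch1, Notch2, Notch3 and Notch4 together. Notch1 held 51.2% ± 0.731 (SD, n = 3) of the receptor transcripts of NSPs, 43.9% ± 1.56 at 24 h, 30.1% ± 0.807 after 72 h and 25.2% ± 0.733 after 1 week. Notch2 went from 22.8% ± 1.22 through 40.7% ± 2.41 and 62.5% ± 0.946 to 64.8% ± 0.84 over the same conditions. Notch3 held 25.6% ± 1.56, 14.9% ± 1.22, 6.82% ± 0.451 and 9.44% ± 0.375 in turn, and Notch4 never averaged more than 0.556%. Among the untreated conditions the order of Notch1 and Notch2 was thus reversed between 24 h, where Notch1 ranged from 42.6% to 45.7% and Notch2 from 38% to 42.3%, and 72 h, where no libraries overlapped. The summed level of Notch1, Notch2 and Notch3 was 62.7 ± 13.2 (NSPs), 78.8 ± 13.1 (24 h), 59.7 ± 11.2 (72 h) and 72.3 ± 11.9 CPM per kb (1 week), with overlapping libraries in all 4. The shares are a description with no test.

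**Figure D2:**
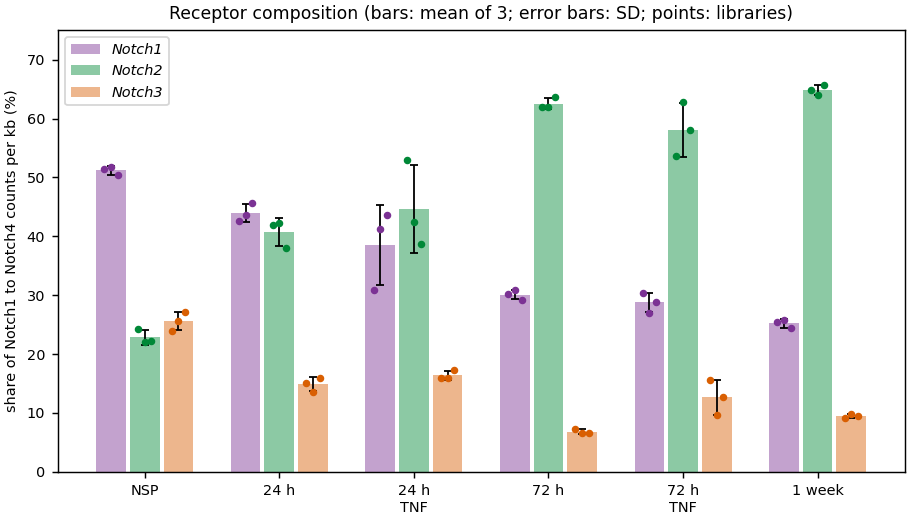
Share of each receptor in the summed counts per kb of Notch1 to Notch4 (percent, from 0), as bars at the mean of 3, SD error bars and 1 point per library. Notch2 went from 22.8% in NSPs to 64.8% at 1 week while Notch1 went from 51.2% to 25.2%, and the 72 h TNF points of Notch3 (9.63% to 15.5%) lie above the untreated 72 h points.

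Dll1 and Jag1 were lower than in NSPs at every time without TNF, and no differentiating library reached the lowest NSP library of any of the 3 ligands. Dll1 (ENSMUSG00000014773, chromosome 17, 15367354 to 15376872), a ligand that activates receptors on neighbouring cells, was at 107, 194 and 188 CPM in NSPs. It was at 26.4, 27.9 and 28.9 CPM at 24 h, at 10.1, 16.9 and 14.9 CPM at 72 h and at 16.1, 13.6 and 16.3 CPM at 1 week. The 24 h libraries lay between the NSPs and the later times, and 72 h and 1 week overlapped. Dll1 was 5.89-fold lower than in NSPs at 24 h (log2 -2.56 ± 0.25, adjusted p = 1.93e-07), 11.7-fold lower at 72 h (log2 -3.55 ± 0.27, adjusted p = 2.42e-09) and 10.7-fold lower at 1 week (log2 -3.41 ± 0.26, adjusted p = 3.06e-09). It also fell from 24 h to 72 h, by 0.99 ± 0.25 (adjusted p = 0.007).

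Dll3 (ENSMUSG00000003436, chromosome 7, 28293553 to 28302238), a divergent Delta ligand known to act against Notch signalling within the cell that makes it, was at 3.49, 16.7 and 13.9 CPM in NSPs. NSP replicate 1 held a much lower level than the other NSP libraries. Dll3 was at 0.783 to 1.79 CPM at 24 h, at 0.11 to 0.53 CPM at 72 h and at 0.11 to 0.423 CPM at 1 week, which are 11 to 22, 2 to 7 and 2 to 7 counts per library. No differentiating library overlapped the NSPs, and 72 h overlapped 1 week. Counts were pooled over 3 libraries and corrected for library size. They were 10.8 times higher in NSPs than at 24 h and 35 times higher than at 72 h. Against 1 week they were 43.1 times higher. No interval is given, because pooling ignores the spread between libraries. The fitted log2 difference from NSPs at 72 h was -5.04, and it moved to -4.33 in the fit with a replicate block and 72 h replicate 3 unpaired.

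Jag1 (ENSMUSG00000027276, chromosome 2, 137081456 to 137116644), a Jagged ligand, was at 87.5, 71.4 and 70.7 CPM in NSPs and at 22.7, 19.9 and 21.7 CPM at 24 h. It was at 2.88, 3.31 and 3.8 CPM at 72 h and at 6.05, 6.36 and 5.85 CPM at 1 week. The 4 conditions did not overlap, and 72 h was the lowest of them. Jag1 was 3.57-fold lower than in NSPs at 24 h (log2 -1.84 ± 0.16, adjusted p = 3.07e-08), 22.8-fold lower at 72 h (log2 -4.51 ± 0.18, adjusted p = 1.91e-12) and 12.6-fold lower at 1 week (log2 -3.65 ± 0.17, adjusted p = 5.88e-12). It fell from 24 h to 72 h by 2.68 ± 0.18 (adjusted p = 2.06e-08) and was 1.82-fold higher at 1 week than at 72 h (log2 0.86 ± 0.18, adjusted p = 0.00569).

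Between 24 h and 72 h, 0 of the 8 tested genes were higher and 4 were lower (Notch1, Notch3, Dll1 and Jag1), where 12.2% of all tested genes were higher and 12.6% were lower. DESeq2 called 5, and 5 had an unadjusted p below 0.05 with edgeR. Between 72 h and 1 week, Jag1 was the 1 gene called, where 2.68% of all genes were higher and 3.96% were lower. DESeq2 also called Notch3, so its count was 2.

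Hes1 (ENSMUSG00000022528, chromosome 16, 30064384 to 30067796), a repressor that many pathways besides Notch can induce, was at 53.3, 48.3 and 41.3 CPM in NSPs and at 14.9, 17.6 and 13.8 CPM at 24 h. It was at 7.95, 8.28 and 9.85 CPM at 72 h and at 6.67, 5.43 and 4.23 CPM at 1 week. The 4 conditions did not overlap and descended in the order of time. Hes1 was 3.08-fold lower than in NSPs at 24 h (log2 -1.63 ± 0.31, adjusted p = 2.88e-04), 5.46-fold lower at 72 h (log2 -2.45 ± 0.32, adjusted p = 3.71e-06) and 8.67-fold lower at 1 week (log2 -3.12 ± 0.33, adjusted p = 2.42e-07). The steps from 24 h to 72 h (log2 -0.83 ± 0.32, adjusted p = 0.0665) and from 72 h to 1 week (log2 -0.67 ± 0.33, adjusted p = 0.278) did not pass the test, and DESeq2 called the first of them (adjusted p = 0.0438).

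Hes5 (ENSMUSG00000048001, chromosome 4, 154960923 to 154962371), the HES gene that in neural stem cells depends most closely on Notch, is described by its levels. It held 386, 1803 and 1653 counts in NSPs, or 24.5, 99 and 94 CPM. At 24 h it held 83, 156 and 99 counts, or 6.27, 8.72 and 8.07 CPM. The low NSP library was replicate 1, which was also low for Dll3, and it still lay above every library of the other conditions.

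At 72 h Hes5 held 2, 10 and 6 counts (0.151, 0.614 and 0.33 CPM), and at 1 week it held 1, 3 and 1 counts (0.0442, 0.164 and 0.0704 CPM). Counts were pooled over 3 libraries and corrected for library size. They were 9.57 times higher in NSPs than at 24 h and 197 times higher than at 72 h. Against 1 week, which held 5 counts in all, they were 821 times higher. No interval is given, because Hes5 was chosen on this loss and pooling ignores the spread between libraries. The order of the mean levels was NSPs, 24 h, 24 h with TNF, 72 h with TNF, 72 h and 1 week. In that order 24 h and 24 h with TNF overlapped, as did both 72 h conditions, and the highest 1 week library (0.164 CPM) overlapped the lowest 72 h library (0.151 CPM). On the log2 scale the fitted difference from NSPs at 1 week was -9.52 and ranged from -10.19 to -9.12 when 1 library was left out, the lowest without 1 week replicate 2.

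Hey1 (ENSMUSG00000040289, chromosome 3, 8663359 to 8667256), a HEY family repressor, rose where the HES genes fell. It was at 49.8, 61.5 and 59.3 CPM in NSPs and at 105, 127 and 105 CPM at 24 h. It was at 95.3, 132 and 137 CPM at 72 h and at 112, 88.8 and 107 CPM at 1 week. No differentiating library without TNF overlapped the NSPs, and the 3 differentiating conditions overlapped each other. Hey1 was 1.97-fold higher than in NSPs at 24 h (log2 0.98 ± 0.18, adjusted p = 2.16e-04), 2.13-fold higher at 72 h (log2 1.09 ± 0.18, adjusted p = 5.32e-05) and 1.80-fold higher at 1 week (log2 0.85 ± 0.18, adjusted p = 5.5e-04).

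Hey2 (ENSMUSG00000019789, chromosome 10, 30832359 to 30842801), the other HEY gene, was scarce, at 2.98, 4.17 and 4.61 CPM in NSPs and at 1.96, 3.02 and 1.87 CPM at 24 h. It was at 1.82, 3.37 and 2.7 CPM at 72 h and at 2.03, 1.21 and 1.62 CPM at 1 week. Among the untreated conditions, the 1 week libraries lay wholly below the NSPs and the others overlapped them. Hey2 fell by 1.27 ± 0.34 on the log2 scale at 1 week (adjusted p = 0.00359). At 24 h the log2 fold change was -0.76 ± 0.33 (adjusted p = 0.0623, and 0.0374 without NSP replicate 1 or 0.0389 without 24 h replicate 2), and at 72 h it was -0.57 ± 0.33 (adjusted p = 0.15).

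Per length, Hes1 was at 23.4 ± 2.96 (NSPs), 7.56 ± 0.955 (24 h), 4.27 ± 0.499 (72 h) and 2.67 ± 0.6 CPM per kb (1 week). Hey1 was at 17.4 ± 1.9, 34.3 ± 4, 37.1 ± 6.94 and 31.4 ± 3.77 CPM per kb at the same times. Every NSP library of Hes1 lay above those of Hey1, and every differentiating one lay below them. The summed level of the 3 ligands was 55.8 ± 12.3, 10.7 ± 0.484, 4 ± 0.847 and 4.78 ± 0.358 CPM per kb. These levels per length are a description with no test.

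**Figure D3:**
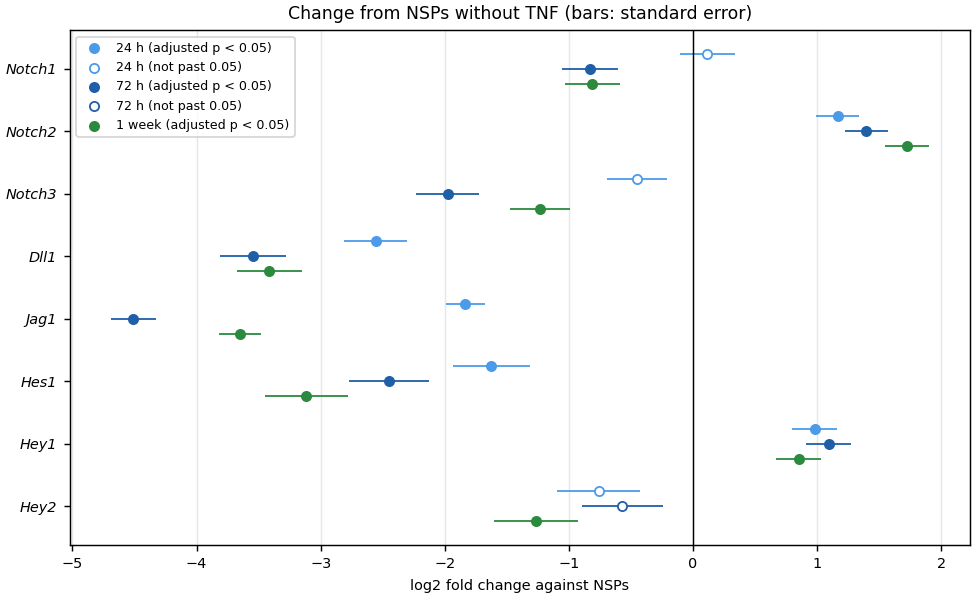
Log2 fold change against NSPs at 24 h, 72 h and 1 week without TNF for the 8 tested genes, with standard errors and filled points where the adjusted p was below 0.05. Notch2 and Hey1 lie to the right of 0 at all times, and the leftmost point is Jag1 at 72 h (-4.51).

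Leaving out the first replicate of NSPs and of both TNF conditions together left the calls made at 24 h, 72 h and 1 week against NSPs in place. It added Notch3 (log2 -0.67 ± 0.24, adjusted p = 0.0279) and Hey2 (log2 -0.93 ± 0.33, adjusted p = 0.0246) at 24 h. Markers of several cell types also changed against NSPs. The 4 markers of dividing cells were all lower than in NSPs at each time. Of 5 tested markers of the oligodendrocyte lineage, 3 were lower at 24 h, 4 at 72 h and 5 at 1 week, where the counts include Sox10 and, at 1 week, Mbp, which lay near the filter on low counts. The list summed to 81.9 to 183 CPM in NSPs, 61.3 to 63.4 CPM at 24 h, 14.5 to 18.8 CPM at 72 h and 22.2 to 27.5 CPM at 1 week. Of 6 tested neuronal markers, 1 was lower and 1 higher at 24 h and 5 were lower at 72 h and at 1 week, with sums of 20.9 to 42.6 CPM in NSPs, 42.8 to 49.7 CPM at 24 h, 11.8 to 12.1 CPM at 72 h and 8.28 to 8.88 CPM at 1 week. The 8 astrocyte markers summed to 5130 to 5360 CPM in NSPs, 5320 to 5790 CPM at 24 h, 5700 to 8140 CPM at 72 h and 2680 to 3250 CPM at 1 week. Of the 8, 3 were higher and 1 lower at 24 h, 2 were higher (Gfap and Aqp4, log2 6.48 and 2.46) and 3 lower at 72 h, and 0 were higher and 5 lower at 1 week. Their median log2 fold change was -0.16, -0.41 and -0.82, and Gfap averaged 27.1 CPM in NSPs and 2432 CPM at 72 h. Of the 5 neural stem cell markers, Nes, Sox2 and Fabp7 were lower and Vim higher at 24 h. At 72 h Fabp7 was lower and Vim higher, and at 1 week Sox2 and Fabp7 were lower. Prom1 passed the filter on low counts through differentiating conditions and is given without a test. It was at 0.127 to 0.284 CPM in NSPs and at 0.757 to 1.6 CPM at 72 h. Of the mural markers, Acta2 was higher by 6.25, 5.35 and 6.00 on the log2 scale at the 3 times (6.92, 6.03 and 6.69 without the 3 libraries), and Rgs5, which passed the filter on low counts through differentiating conditions, averaged 0.0591 CPM in NSPs, 1.32 CPM at 24 h, 2.49 CPM at 72 h and 0.309 CPM at 1 week. Without the 3 libraries the neuronal counts at 24 h became 2 higher and 3 lower, and the astrocyte counts 3 and 3, 3 and 4, and 1 and 6 in order of time. The part of these shifts in the members' results was not tested.

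With TNF, genes were called at 72 h and not at 24 h. At 24 h, 0 of the 10 genes were called with edgeR, where 2.18% of all tested genes were higher and 1.32% were lower with TNF. Of the 10, 4 had an unadjusted p below 0.05 and DESeq2 called 1, Notch1. The log2 fold changes ran from -1.09 to 0.13, 9 of them below 0, and their median was -0.48 against -0.01 over all tested genes.

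Notch1, Notch2 and Dll1 had the lowest adjusted p at 24 h. Notch1 was at 208, 279 and 375 CPM with TNF, below all 3 untreated libraries, with a log2 fold change of -0.79 ± 0.23 and an adjusted p of 0.062 (0.0213 without the 24 h TNF replicate 3, 0.0207 with DESeq2). Notch2 was at 271, 218 and 252 CPM, also below the untreated libraries, with a log2 fold change of -0.48 ± 0.17 and an adjusted p of 0.157. Dll1 was at 21.2, 14.8 and 19 CPM, again without overlap, with a log2 fold change of -0.60 ± 0.25 and an adjusted p of 0.268. Without the 3 libraries named above, Notch2 (log2 -0.57, adjusted p = 0.0435) and Dll1 (log2 -0.73, adjusted p = 0.0104) passed the test and Notch1 did not (log2 -0.62, adjusted p = 0.115).

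Jag1 was at 18.5, 24.1 and 27.7 CPM at 24 h with TNF, around the untreated libraries, with a log2 fold change of 0.13 ± 0.16 (adjusted p = 0.8). Hes1 was at 7.37, 14.7 and 15.7 CPM and Hes5 at 1.64, 6.41 and 9.79 CPM, and in both cases replicate 1 lay below all untreated libraries and the other replicates did not. For Hes5 the log2 fold change was -0.37 ± 0.50 (adjusted p = 0.831), and it was 0.06 without replicate 1. Hey1 was at 59.4, 91.5 and 106 CPM, with a log2 fold change of -0.39 ± 0.18 and an adjusted p of 0.338. Of the remaining genes, the log2 fold changes were -0.47 ± 0.24 for Notch3, -1.09 ± 0.63 for Dll3, -0.30 ± 0.31 for Hes1 and -0.49 ± 0.36 for Hey2, with adjusted p from 0.413 to 0.769.

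At 72 h TNF raised 1 of the 10 genes, the ligand Jag1, and lowered 3, the targets Hes1, Hey1 and Hey2, where 4.35% of all tested genes were higher and 5.21% were lower. Jag1 was at 11.4, 8.88 and 9.26 CPM with TNF, against at most 3.8 CPM without it. It was 2.94-fold higher (log2 1.55 ± 0.18, adjusted p = 1.39e-05) and stayed called under every alternative, with a log2 fold change between 1.44 and 1.66. The level with TNF at 72 h lay between those of the untreated cells at 24 h and at 72 h.

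Of the 4 target genes, 3 were lower with TNF and Hes5 was not called. Hey1 was at 52, 59.3 and 57.3 CPM with TNF, below every untreated 72 h library and within the range of the NSPs. It was 2.16-fold lower (log2 -1.11 ± 0.18, adjusted p = 5.02e-04) and stayed called under every alternative, with a highest adjusted p of 0.00445. Hes1 was at 1.18, 3.54 and 4.94 CPM, all below the untreated libraries, of which the lowest was at 7.95 CPM. It was 2.72-fold lower (log2 -1.44 ± 0.35, adjusted p = 0.0115), and the adjusted p was 0.054 without 72 h replicate 3, 0.0581 in a fit of only both 72 h conditions and 0.0616 with the replicate block and 72 h replicate 3 unpaired. Without the 3 libraries that stood apart the value was -1.03 ± 0.20 (adjusted p = 0.00201).

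Hey2 was at 0.789, 1.57 and 0.813 CPM with TNF, or 13 to 27 counts, and did not overlap the untreated libraries. It was 2.49-fold lower (log2 -1.32 ± 0.37, adjusted p = 0.0283). The adjusted p was 0.149 without 72 h replicate 2, 0.084 without 72 h replicate 3, 0.117 without the 72 h TNF replicate 1 and 0.0961 without the 72 h TNF replicate 3, so the call rested on each of these libraries. It was 0.0662 in the fit of only both 72 h conditions and 0.107 with the block and 72 h replicate 3 unpaired. Hes5 was at 0.902, 0.29 and 1.13 CPM with TNF, from 16, 5 and 18 counts, and overlapped the untreated libraries. The log2 fold change of Hes5 was 1.02 ± 0.91 with an adjusted p of 0.517, so at this depth no effect of TNF on Hes5 at 72 h was detectable.

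Notch3 was at 60.3, 38.7 and 67.5 CPM at 72 h with TNF, where replicate 2 overlapped the untreated libraries. The log2 fold change was 0.74 ± 0.25 with an adjusted p of 0.0658, which became 0.0329 without 72 h replicate 1, 0.0264 without the 72 h TNF replicate 2 and 0.0389 with DESeq2. Its share of the receptor transcripts per length was 12.6% ± 2.95 with TNF and 6.82% ± 0.451 without, and the libraries did not overlap. Notch1 (log2 -0.21 ± 0.22), Notch2 (log2 -0.24 ± 0.17), Dll1 (log2 0.27 ± 0.25) and Dll3 (log2 0.12 ± 0.76) did not pass the test, with adjusted p from 0.395 to 0.942. Without the 3 libraries that stood apart, Dll1 was called (log2 0.53 ± 0.16, adjusted p = 0.0358) and Hey2 was not (adjusted p = 0.0644).

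The difference between the TNF effects at 72 h and 24 h was tested as an interaction. Of the 10 genes, 1 was called, Jag1, with a difference of 1.42 ± 0.23 on the log2 scale (adjusted p = 0.00884), where 0.458% of all tested genes were called in either direction. For Notch3 the difference was 1.21 ± 0.34 (adjusted p = 0.162), for Hes1 it was -1.15 ± 0.47 (adjusted p = 0.41) and for Hey1 it was -0.72 ± 0.25 (adjusted p = 0.298), so these 3 genes were not shown to respond differently at the 2 times. Without the 3 libraries that stood apart, 3 genes were called, Jag1 (log2 1.19 ± 0.18, adjusted p = 0.00194), Dll1 (log2 1.26 ± 0.23, adjusted p = 0.00741) and Hey1 (log2 -0.84 ± 0.20, adjusted p = 0.039).

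**Figure D4:**
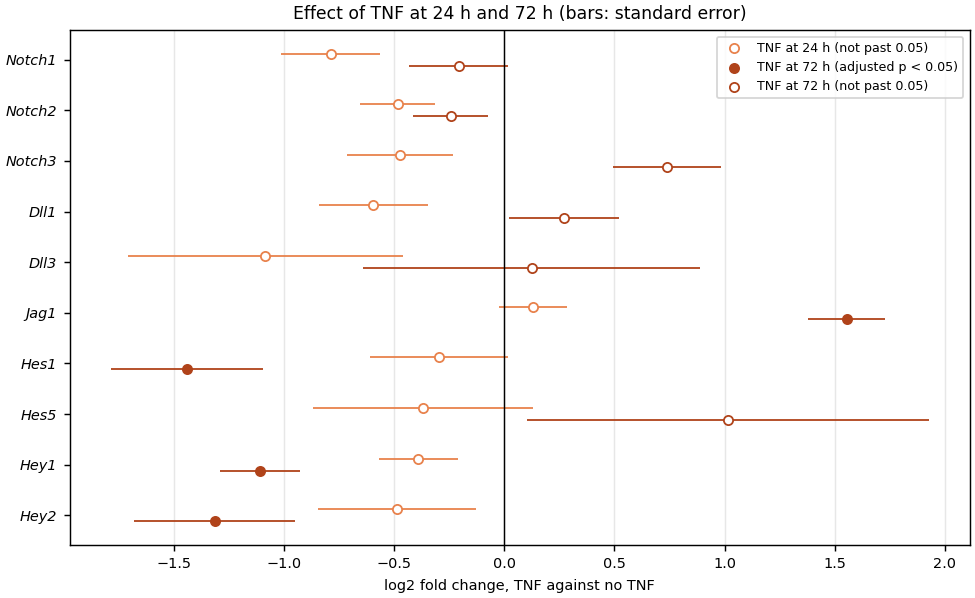
Log2 fold change with TNF against without at 24 h and 72 h for the 10 genes, with standard errors and filled points where the adjusted p was below 0.05. At 24 h no point is filled and 9 of 10 lie left of 0, and at 72 h Jag1 (1.55) is filled on the right and Hes1 (-1.44), Hey1 (-1.11) and Hey2 (-1.32) on the left.

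Markers of cell types moved with TNF at 72 h as well. The sum of 8 astrocyte markers was 3490 to 4890 CPM with TNF and 5700 to 8140 CPM without, and Gfap (log2 -2.31), S100b (log2 -1.64) and Aldoc (log2 -1.57) were the 3 of 8 called lower. Gfap was at 1022, 217 and 229 CPM with TNF, so that replicate 1 stood apart, and without the 3 libraries its log2 fold change was -3.44, 5 astrocyte markers were lower and 1 was higher. The oligodendrocyte precursor marker Cspg4 was higher (log2 2.02, adjusted p = 0.00326), at 74.5, 17.6 and 22.3 CPM with TNF and 7.04 to 11.1 CPM without, and its log2 fold change was 1.09 (adjusted p = 0.00132) without the 3 libraries. The endothelial marker Kdr was lower (log2 -2.27, adjusted p = 0.00318), while the other tested endothelial markers, Pecam1 and Tek, were uncalled at log2 1.02 and 0.98. The neuronal marker Rbfox3 was lower (log2 -1.86, adjusted p = 0.0124) and was not called without the 3 libraries (adjusted p = 0.0549). The median log2 fold change of the 6 tested neuronal markers was -0.01. Without the 3 libraries Tubb3 was called higher (log2 0.90, adjusted p = 0.00167). At 24 h with TNF, the astrocyte marker Aldoc was called lower. The part of these shifts in the lower target genes and the higher Jag1 was not tested.

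Other genes of the pathway were taken from a list of 49, of which 44 could be tested. Dlk1, Hes2, Hes3, Hes7 and Heyl were too low to be tested. Of these, 13 exceeded their NSP level at 24 h and 12 fell below it. The numbers were 13 and 8 after 72 h and 15 and 9 after 1 week. The medians (0.14, 0.12 and 0.12 on the log2 scale) lay close to those of all tested genes, and the shares called higher were near the background percentages given above, while those called lower were near it at 24 h and smaller at 72 h and 1 week.

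Within the list, the genes with the largest falls modify or degrade pathway proteins or are Notch targets. Neurl1b, a ubiquitin ligase that promotes uptake of ligands, was at 36.9, 42.5 and 46 CPM in NSPs, 2.12, 2.74 and 1.96 CPM at 24 h and 0.397, 0.384 and 0.634 CPM at 1 week. It did not overlap the NSPs at any time, and it fell by 4.18 ± 0.23 on the log2 scale at 24 h (adjusted p = 1.73e-10). At 1 week Neurl1b was near the filter on low counts, so its fitted fall of 6.49 is given without a test. Neurl1a, its relative, fell by 3.06 ± 0.30 at 24 h (adjusted p = 2.07e-07). Its fitted fall of 5.43 at 1 week is given without a test for the same reason.

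Mfng, a Fringe glycosyltransferase that changes which ligands a receptor answers to, was at 20.7, 28.5 and 28.6 CPM in NSPs and at 1.28, 2.01 and 1.39 CPM at 24 h. It fell by 4.03 ± 0.34 at 24 h (adjusted p = 3.3e-08). At 1 week it was at 0.219 to 0.282 CPM, near the filter on low counts, so its fitted fall of 6.73 is given without a test. Its relative Lfng fell by 1.59 ± 0.29 at 1 week (adjusted p = 1.32e-04), while Rfng was not called. Nrarp, a Notch target that feeds back on the receptor's intracellular domain, fell by 2.76 ± 0.45 at 24 h (adjusted p = 6.81e-05) and by 4.42 ± 0.52 at 1 week (adjusted p = 7.42e-07). Hes6, a HES family gene linked to neuronal differentiation, fell by 1.75 ± 0.28 at 1 week (adjusted p = 2.68e-05).

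Of 9 genes of the nuclear complex, 5 exceeded their NSP level at 24 h and 1 fell below it, while 2 exceeded it after 72 h and 4 after 1 week with 0 below it both times. Of 10 genes for receptor cleavage, 3, 4 and 3 were higher and 1 was lower at each time. The background over all tested genes was 27.2%, 28.1% and 29.6% higher and 25.5%, 27.2% and 29.1% lower at the same times. Rbpj, which encodes the DNA-binding protein of the pathway, was at 68.5, 62.2 and 68.4 CPM in NSPs and at 82.7, 96.8 and 84.1 CPM at 1 week, with a rise of 0.41 ± 0.12 on the log2 scale (adjusted p = 0.00694). Its coactivator gene Maml3 rose by 2.65 ± 0.29 at 1 week (adjusted p = 3.47e-07) and was the 1 gene of the list called between 72 h and 1 week (log2 1.32 ± 0.27, adjusted p = 0.00487). Of the cleavage genes, Adam10 was 1.26 ± 0.16 higher on the log2 scale at 24 h (adjusted p = 4.74e-06) and Psen2 was 1.27 ± 0.18 higher at 72 h (adjusted p = 1.13e-05). Numb and Numbl, which restrain the receptor, rose at all 3 times, at 72 h by 1.12 ± 0.10 (adjusted p = 3.74e-08) and 1.44 ± 0.26 (adjusted p = 1.06e-04).

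Among the other ligands, Dlk2 and Dll4 passed the filter on low counts through differentiating conditions, so they are given without a test, although the counts over the 44 genes include them. Dlk2 was at most at 0.317 CPM in NSPs, at 3.17, 3.52 and 6.68 CPM at 24 h and at 0.832 to 1.1 CPM at 72 h. Dll4 was at 0.254 to 0.824 CPM in NSPs, at 1.59 to 2.39 CPM at 72 h and at 1.34 to 1.5 CPM at 1 week. Dner, a non-canonical ligand, was at 206, 184 and 174 CPM in NSPs and at 433, 450.5 and 448 CPM at 24 h, a rise of 1.24 ± 0.26 (adjusted p = 6.53e-04).

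With TNF at 24 h, 1 of the 44 genes was higher and 0 were lower, beside 2.18% and 1.32% of all tested genes. The 1 was Dtx3l, a ubiquitin ligase of the Deltex family also known as an interferon-responsive gene, at 11.6, 6.41 and 5.54 CPM with TNF and 3.25, 2.68 and 3.67 CPM without (log2 1.30 ± 0.27, adjusted p = 0.00897). At 72 h, 1 was higher and 2 were lower, beside 4.35% and 5.21% of all tested genes, so at both times the shares were close to the background. Without the 3 libraries that stood apart, 2 were higher and 2 lower at 24 h, and 2 were higher and 3 lower at 72 h. Dner was at 42.8, 83.3 and 75.7 CPM with TNF and at 205, 233 and 205 CPM without (log2 -1.67 ± 0.27, adjusted p = 3.81e-04), and Dtx4 was lower by a smaller step (log2 -0.54 ± 0.14, adjusted p = 0.0213). Neurl1b was higher, at 0.845, 0.58 and 0.939 CPM with TNF and 0.454, 0.184 and 0.165 CPM without (log2 1.60 ± 0.38, adjusted p = 0.0106).

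**Figure D5:**
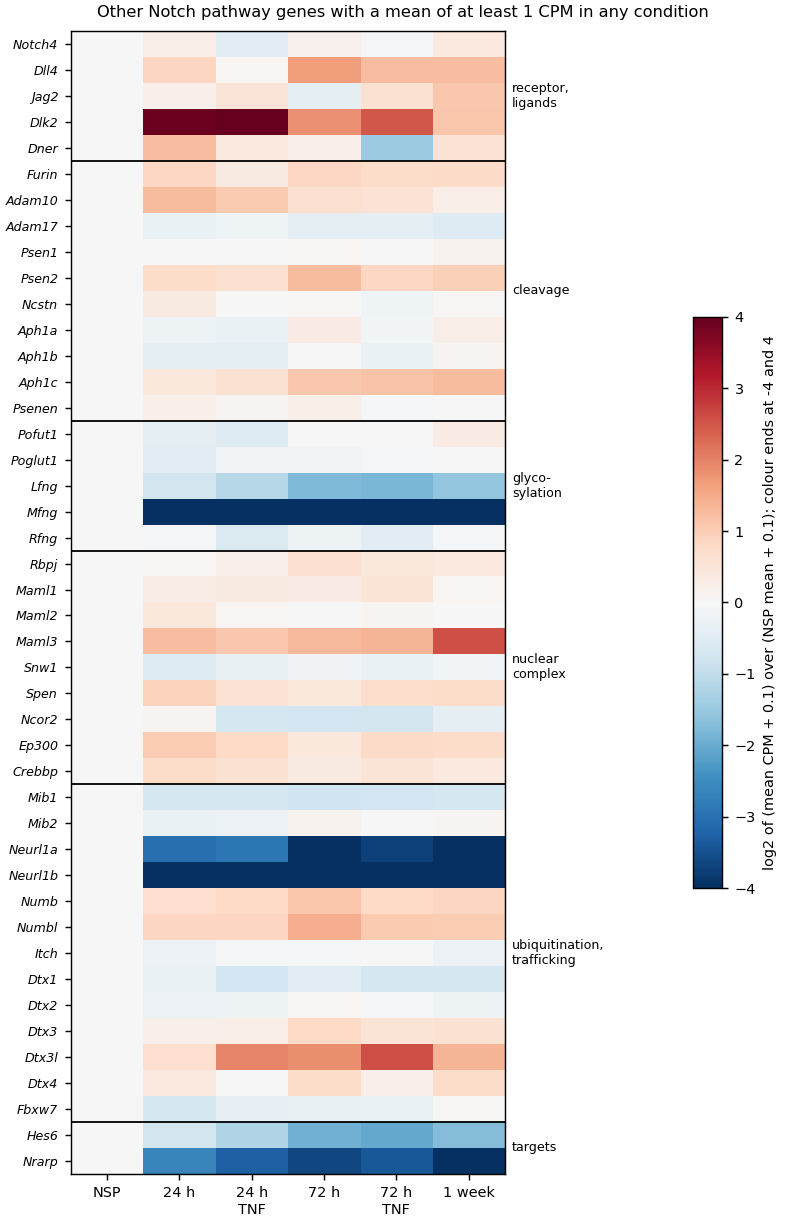
Other pathway genes (rows, grouped by role) across the 6 conditions (columns), as log2 of mean CPM plus 0.1 over the NSP mean plus 0.1, with colours ending at -4 and 4. Mfng, Neurl1a, Neurl1b and Nrarp are blue in the differentiating conditions, Dlk2 is dark red at 24 h, and most genes for cleavage and the nuclear complex are pale.

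Of the proneural factors, the class of genes that HES proteins repress, Neurog2 and Neurod1 were lower than in NSPs at 24 h, 72 h and 1 week. Neurod1 was at 11.9, 11.1 and 8.65 CPM in NSPs and at 3, 2.36 and 2.54 CPM at 1 week, where it fell by 2.00 ± 0.25 on the log2 scale (adjusted p = 1.98e-06). Neurog2 was at 1.27, 6.42 and 7 CPM in NSPs, again low in replicate 1, and at 0.309, 0.274 and 0.352 CPM at 1 week. These last levels lay near the filter on low counts, so the fitted log2 fold change of -3.96 is given without a test. Neither was called with TNF at 24 h or 72 h, although without the 3 libraries that stood apart Neurod1 was higher with TNF at 72 h (log2 0.97, adjusted p = 0.0166). Neurod4 passed the filter on low counts through the NSPs and is given without a test, at 0.635 to 0.967 CPM in NSPs and at most 0.227 CPM in any untreated differentiating library. Neurog1 and Atoh1 were too low to be tested.

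Of 16450 genes with a mean of at least 1 CPM, those whose log2 CPM followed Hes5 most closely over the 18 libraries were Litaf (Pearson r = 0.976), Gm6588 (0.975), Shf (0.973), Sbk1 (0.97) and Syt11 (0.968). Litaf averaged 39.2 CPM in the NSPs and 4.44 CPM at 1 week. For Notch3 they were Pik3c2b (0.925), Dchs1 (0.92), Kdm5c (0.913), Dgkz (0.911) and Elavl3 (0.91). The points share their conditions and libraries, so these values describe a common time course. Over the 6 condition means, 1 of the 5 genes remained among the 5 closest in each case, Litaf for Hes5 and Elavl3 for Notch3.

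Several of the genes share exon sequence with a transcript on the other strand, and the sources used here do not state the strand setting of the counting. Hes5 shares 433 bases with Gm20421 (at most 0.275 CPM), Dll1 shares 867 with A930024N18Rik (at most 2.42 CPM), Notch3 shares 488 with Gm17276 (at most 1.4 CPM) and Notch1 shares 1068 with 0610009E02Rik (at most 3.33 CPM). Notch2 shares 541 bases on its own strand with Gm42820 (1.92 to 10.8 CPM), so the counting could split reads between them.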

How the data were processed

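Total RNA was depleted of ribosomal RNA and sequenced as stranded, paired 75 bp reads from 18 mouse cultures. Per the labels and the methods of the study, the authors used FastQC and Trim Galore on the reads, STAR for alignment (mm10), SAMtools for sorting and featureCounts for counting, and deposited raw gene counts without normalization. Versions and the strand setting are not given in the sources used here. RNA quality was given as a wide range that reached low values, and not per library. Its part in the libraries that stood apart and in the levels per length was not tested.

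From the counts, edgeR 4.0.16 (R 4.3.3) estimated TMM factors and fitted its quasi-likelihood test to all 18 libraries together, each condition having its own mean. For the 20067 genes kept by its filter, p-values of 8 comparisons were adjusted after Benjamini and Hochberg and called below 0.05. Dll3 was in the fits, and was left out of the counts between untreated conditions after the data were seen. The fit was tested on simulated data. Names, positions and exon lengths are from GENCODE M21, and promoters are from RefSeq. Replicates of each condition differed by more than sampling noise, so none was counted as a duplicate. In the table, 72 h replicate 3 is numbered 4.

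The members and lists were chosen with earlier results of these data known. The text names every member, up to 4 called genes per role of the lists with the largest changes, other list genes where a member's result bears on them, and the 5 genes most like Hes5 and Notch3. Alternatives were DESeq2 1.42.0, RLE factors, no filter beyond 5 counts in total, a minimum of 10 counts in each library, separate fits of the conditions compared, a block for the replicate number (also with 72 h replicate 3 unpaired), leaving out each library, and, added after seeing the data, leaving out the first replicate of NSPs and both TNF conditions together. Results of some list genes are not reported here.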

Additional observations from a re-analysis of the deposited data

Results flagged for a closer look

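The effect of TNF on Jag1 differed between the time points. It was 0.13 on the log2 scale at 24 h and 1.55 at 72 h, a difference of 1.42 ± 0.23 with an adjusted p of 0.00884 in edgeR's interaction test, and 3 of 3 libraries with TNF lay above every untreated library at 72 h. Over all alternatives the difference ranged from 1.19 to 1.56 with adjusted p from 4.82e-05 to 0.0454.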

How the results depend on the processing

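Of 1016 tested member values under alternatives, 967 kept their direction and side of the threshold, 11 lost a call, 23 gained one and 15 changed sign, none of the last called. Of the 8 genes tested between untreated conditions, 5 were called at 24 h against NSPs, and 5 to 7 under the alternatives (6 with DESeq2 and with the plain replicate block, 7 without the 3 libraries that stood apart). The number was 7 at 72 h and 8 at 1 week under every alternative. From 24 h to 72 h it was 4, and 5 with DESeq2 and with only the groups compared, and 3 with the replicate block and 72 h replicate 3 unpaired. From 72 h to 1 week it was 1, with DESeq2 2, and 1 to 2 leaving out 1 library. For TNF at 24 h it was 0, and 1 with DESeq2, with no filter beyond 5 counts and with the replicate block leaving 72 h replicate 3 unpaired, 0 to 1 leaving out 1 library and 2 without the 3 libraries that stood apart. For TNF at 72 h it was 4, and 5 with DESeq2, 2 with that block and with only the groups compared, and 2 to 5 leaving out 1 library. For the interaction it was 1, and 3 without the 3 libraries. The cause was not tested.

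Signs turned for uncalled values. With the block and 72 h replicate 3 unpaired, the log2 fold change from 72 h to 1 week was -0.22 for Notch1, and that of TNF at 72 h was -0.471 for Dll3. Leaving out libraries gave ranges of -0.07 to 0.232 for Notch1 at 24 h against NSPs, of -0.021 to 0.476 for Hey2 from 24 h to 72 h, and, from 72 h to 1 week, of -0.134 to 0.15 for Notch1, -0.05 to 0.291 for Dll1 and -0.78 to 0.066 for Dll3, which is described without a test there. With TNF the ranges were -0.01 to 0.259 for Jag1 and -0.96 to 0.064 for Hes5 at 24 h and -0.35 to 0.487 for Dll3 at 72 h.

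Without division by exon length, Notch1 took 61.5%, 52.6%, 36.8% and 31.5% of the receptor counts over the 4 untreated conditions in order of time (46.9% and 35.8% with TNF at 24 h and 72 h). Notch2 took 20.8%, 37%, 58% and 61.4%, and Notch3 17.5%, 10.1%, 4.75% and 6.71% (11.4% and 8.94% with TNF). Of the 5 genes most like Hes5, 1 remained over condition means, and of those most like Notch3, 1.

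Between the conditions of each comparison, same-numbered replicates did not deviate together (mean r of -0.096 to 0.14, and in no comparison were all 3 pairs above 0.1). The 24 h and 72 h TNF conditions were not set against each other in this way. Their first replicates departed alike for some markers. Gfap was at 1871 CPM (463 and 596 in the others) at 24 h and at 1022 CPM (217 and 229) at 72 h. Acta2 was at 90.3 CPM (527 and 492.5) and 49.2 CPM (186 and 202) at these times. The interaction test treats these libraries as independent. The plain replicate block called Hey2 at 24 h against NSPs (log2 -0.794, adjusted p = 0.0479) and changed no other member call. Over all genes, calls from 24 h to 72 h went from 4970 to 3286 with 72 h replicate 3 unpaired, from 72 h to 1 week from 1331 to 617 (2001 with only the groups compared, 610 without 72 h replicate 2), for TNF at 24 h from 703 to 1277 without the 3 libraries (360 without 24 h replicate 2), for TNF at 72 h from 1919 to 986 with that block (965 without 72 h replicate 2, 2922 without 72 h replicate 1), and for the interaction from 92 to between 24 and 348. Dll3, Hes5 and Hey2 rest on few counts outside NSPs, which limits their precision.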
